A study of Mus musculus with 6 samples.

Results

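The SMC lines are the 3 primary mouse lung tumour lines whose cell type label reads SMC, out of 6 lines in the series; they were taken by that label alone. The labels do not spell out the abbreviation. All 6 lines were grown from tumours of a mouse model of small cell lung carcinoma, in C57BL/6J mice with the genotype Rb1L/L, Trp53L/L, and were kept in RPMI 1640 medium with fetal bovine serum and antibiotics. Lung tumour is the labelled tissue, and the sources used here give neither the age of the mice nor the Cre that acts on the alleles. Each SMC line has a non-SMC partner with the same pair label. Line 1 (pair R716T2) and line 3 (pair R1611) are labelled female and line 2 (pair R1563) male. There was 1 array per line, so the spread between lines holds both biology and array-to-array variation, and no difference between lines could be tested.

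Small cell lung carcinoma is a neuroendocrine tumour. Its cells resemble the hormone-secreting cells of the airway, in which hormone precursors are packed with granins into dense-core vesicles that a synaptic type of machinery releases. Loss of Rb1 and Trp53 is the shared starting point of the mouse model, and extra copies of a MYC family gene (Myc, Mycl or Mycn) are a well known later event in the human disease. Genes of the epithelium from which the tumour arises were looked at as well.

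Agilent single-colour arrays (Cy3) were used. Values below are the deposited log2 signals, which are quantile normalized between the 6 arrays, in the order line 1, line 2 and line 3. A gene counts as detected where its probe was well above background, and its rank is its place among 18749 genes with a symbol on that array, 1 being the brightest. Brightness also depends on the probe, so ranks describe signal and not the order of RNA amounts. The SMC arrays had 26808 to 28197 of 41174 probes well above background and no saturated probe. Probes printed as 10 spots had a median SD of 0.076 to 0.094 over their spots, against a median SD of 0.38 between lines over the genes detected in all 3. SMC lines 1 and 2 were scanned on the same slide, while line 3 lay on a slide of its own, so line 3 and its slide cannot be told apart.

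The label was first set against cell type markers. Of 20 neuroendocrine markers, 19 were detected in all 3 lines, where 65.9% of all genes were. Chgb, a granin, read 13.51, 12.86 and 14.32. Syt1, the calcium sensor of vesicle release, read 12.95, 11.98 and 13.19. Ncam1, a neural adhesion molecule, read 14.01, 13.40 and 14.25. All 3 were high in every line, with an SD between lines of 0.73, 0.64 and 0.44. Mycl was high in lines 1 and 2 (15.22 and 15.03) and lower in line 3 (10.42). Ddc, the decarboxylase that makes dopamine and serotonin, stood at 15.05, 14.92 and 15.09. The exception was Stmn2, a neuronal stathmin, detected in line 2 at 6.78 and in neither other line. Dll3, an inhibitory Notch ligand, spanned the widest range among the detected markers apart from Mycl, at 8.05, 10.32 and 11.79.

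**Figure D1:**
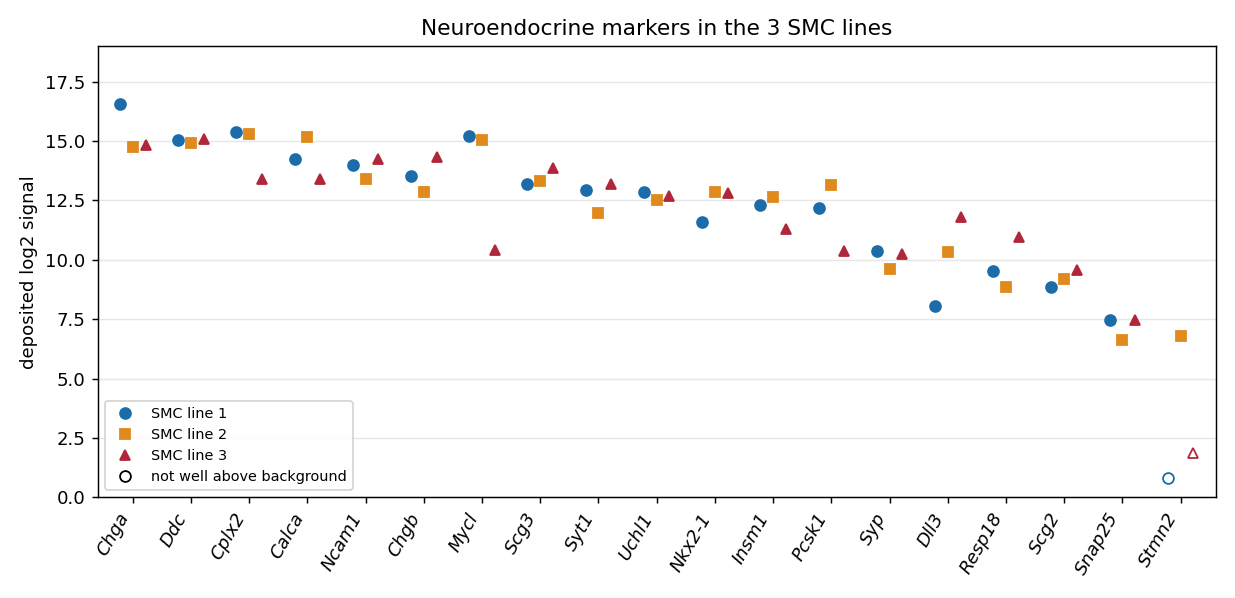
Deposited log2 signal (vertical axis) of 19 neuroendocrine markers in each SMC line, ordered by their mean; open symbols were not well above background. Chga and Ddc sit near the top in all 3 lines, Mycl is lower in line 3, and Stmn2 is detected in line 2 alone.

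The lists of other cell types were detected to different degrees. Of 15 epithelial markers, 12 were detected in all 3 lines, with list medians of 11.94, 11.97 and 6.11. Of the other lung lists, 7 of 10 basal and ciliated markers and 7 of 12 club and alveolar markers were detected in all 3 lines, the surfactant gene Sftpc at 12.97, 8.68 and 6.35. Of 8 Schwann cell and neural crest markers, 6 were, with list medians of 3.92, 3.67 and 3.55. Of 18 fibroblast and mesenchymal markers, 7 were detected in all 3 lines, with list medians of 2.56, 2.35 and 2.96. Vim, the mesenchymal intermediate filament, read 2.38, 2.21 and 2.59 and was well above background in line 3 alone. These values were near the lowest detected signal of each array (2.37, 2.52 and 1.92), which was lowest in line 3. Of 8 smooth muscle markers, 4 were detected in all 3 lines. Acta2, smooth muscle actin, was bright at 12.80, 12.44 and 12.15, while Myh11, the smooth muscle myosin, read 2.99, 1.94 and 2.89 and Des, desmin, 1.06, 3.71 and 1.78. Of 10 endothelial markers, 3 were detected in all 3 lines. Pecam1 and Cdh5 were detected in no SMC line, while Vwf read 13.61, 12.69 and 6.92 and Egfl7 7.75, 5.91 and 11.08. Of 14 leukocyte markers, 5, 7 and 11 were detected in lines 1, 2 and 3, where 65.5%, 65.1% and 68.5% of all probes were. Line 3 thus also had the most detected probes. Spi1, the myeloid master factor, was detected in none, and Ptprc, the pan-leukocyte phosphatase, in line 2 alone, at 3.26. Of 8 tuft cell markers, 2 were detected in all 3 lines, and Pou2f3, the tuft cell factor, was below background in every line.

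All 10 granin and prohormone processing genes were detected in all 3 lines. Chga, the major granin, was among the brightest secreted products at 16.57, 14.75 and 14.82. Scg3, which anchors granins in the vesicle membrane, read 13.18, 13.31 and 13.87. The convertases followed: Pcsk1 at 12.19, 13.15 and 10.37, and Pcsk2 at 12.06, 13.06 and 12.87. Cpe, which trims the cut peptides, read 13.05, 12.24 and 13.78, and Pam, which amidates them, 9.34, 9.43 and 11.23. Since these genes were on together in every line, their promoters were searched for TGACGTCA, the palindromic cAMP response element, which reads alike on both strands. It was found in 3 of 10 promoters of 9 of these genes (Chgb, Scg2 and Pcsk1), against 1.55% of 32851 promoters in the same table. The 250 bases before each start site are shown from RefSeq (GRCm38.p6), with the element in capitals: Chgb at chr2:132781392-132781641 on the plus strand, Scg2 at chr1:79440027-79440276 on the minus strand, and Pcsk1 at chr13:75089607-75089856 on the plus strand.
Chgb: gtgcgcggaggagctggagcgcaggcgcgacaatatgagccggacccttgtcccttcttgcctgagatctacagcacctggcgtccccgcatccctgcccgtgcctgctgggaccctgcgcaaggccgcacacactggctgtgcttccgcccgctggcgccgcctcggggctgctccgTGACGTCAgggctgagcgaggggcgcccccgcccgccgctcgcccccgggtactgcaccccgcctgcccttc
Scg2: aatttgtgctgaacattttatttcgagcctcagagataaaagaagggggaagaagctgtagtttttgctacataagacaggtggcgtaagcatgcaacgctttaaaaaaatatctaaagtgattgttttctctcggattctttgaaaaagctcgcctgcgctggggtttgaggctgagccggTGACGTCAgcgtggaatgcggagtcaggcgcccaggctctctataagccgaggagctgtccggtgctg
Pcsk1: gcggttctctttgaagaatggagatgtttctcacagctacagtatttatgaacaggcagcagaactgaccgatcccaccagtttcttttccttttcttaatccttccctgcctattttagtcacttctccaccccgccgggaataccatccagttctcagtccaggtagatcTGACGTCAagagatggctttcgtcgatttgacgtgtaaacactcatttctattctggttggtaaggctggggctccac
The element began 72, 68 and 78 bases before the start site in Chgb, Scg2 and Pcsk1. All 3 genes were detected in every line, but so were the granin genes without the element. Scg2 itself read 8.88, 9.18 and 9.59.

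Of all 18749 genes, 12350 (65.9%) were detected in all 3 SMC lines and 713 (3.80%) were in the brightest 5% (rank 937 or better) of every line. The top of the list was housekeeping. Among the 100 brightest genes were 55 genes of ribosomal proteins, 11 histone genes, 7 genes of the respiratory chain and 3 tubulin or stathmin genes. H2ac1 led the mean rank at 18.58, 18.58 and 18.25, followed by Rps18 at 18.43, 18.13 and 18.58. The histone genes are near-identical copies, so their probes may read several genes at once. All 24 cell cycle genes were detected in all 3 lines, and none differed 4-fold in any line. Mcm6, part of the replicative helicase, read 16.02, 15.37 and 15.92, and Mki67, the proliferation antigen, 14.96, 15.64 and 15.40.

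Of 629 transcription factors with a probe, 384 (61.0%) were detected in all 3 lines and 9 were in the brightest 5% of each. Among these were Ybx1, Hmga1, Hes6, E2f2, Foxa2, Id2, Atf5 and Jund. Ybx1, a nucleic acid binding protein with a broad role in mRNA handling, ranked 56, 50 and 23. Hes6, a neuronal antagonist of Hes1, ranked 176, 266 and 374. Foxa2, a pioneer factor of the lung and foregut, ranked 384, 368 and 511. Nkx2-1, the lung lineage factor, read 11.57, 12.83 and 12.80. Nfib, a regulator often gained in mouse small cell tumours, read 12.99, 13.45 and 13.96. Insm1, a zinc finger of endocrine cells, read 12.32, 12.66 and 11.31, and its relatives in function St18 and Myt1 13.76, 13.46 and 11.34, and 11.89, 11.11 and 10.93. Rest, the repressor of neuronal genes, lay at the other end at 3.60, 2.15 and 2.95, below background in line 2.

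**Figure D2:**
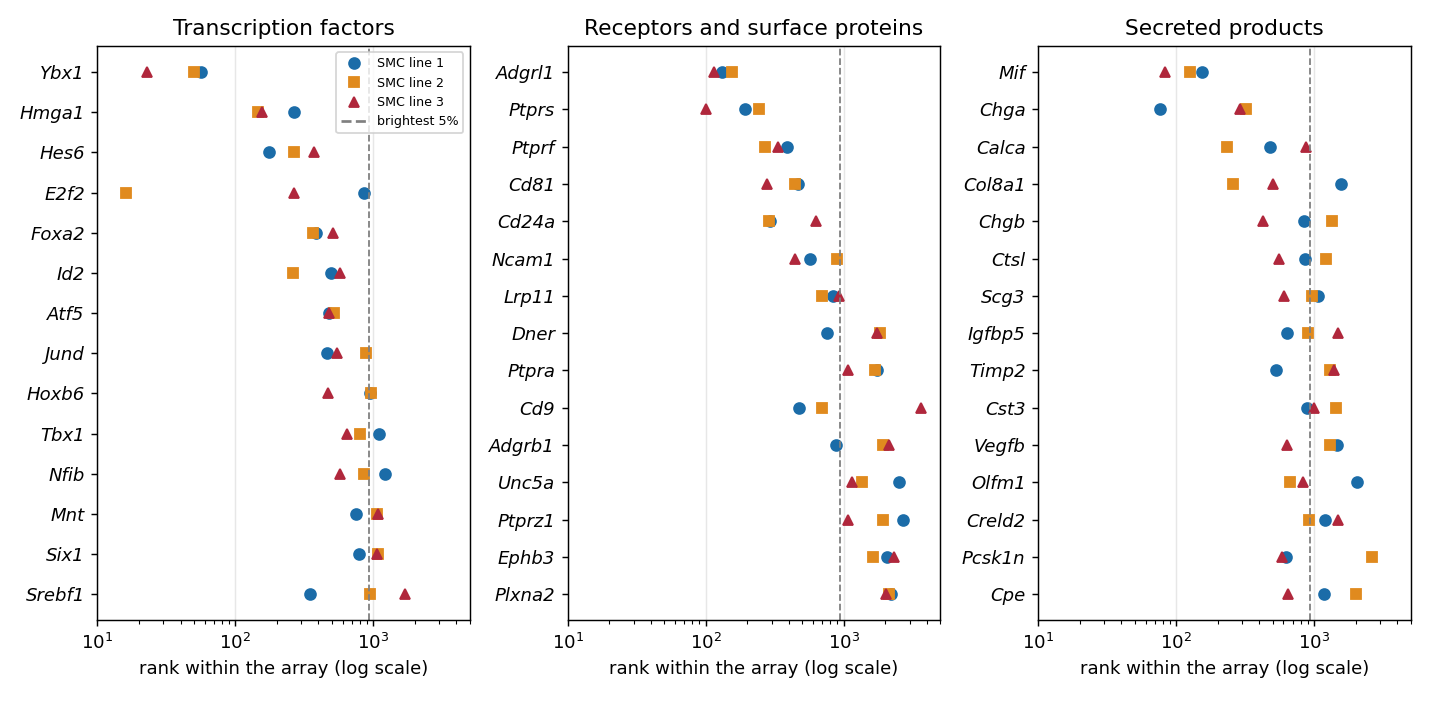
Rank within the array (horizontal log axis, 1 being the brightest of 18749 genes) of 14 transcription factors, 15 receptors and surface proteins and 15 secreted products from those with the best mean rank; the dashed line marks rank 937. E2f2 and Cd9 are spread wide between lines, while Adgrl1, Atf5 and Plxna2 lie close together.

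Of 27 proneural and neuronal bHLH factors, 7 were detected in all 3 lines. Neurod1, which marks another small cell subtype, read 7.22 in line 2 and was below background in lines 1 and 3. Neurog3, the endocrine progenitor factor, read 7.62, 8.97 and 3.13. The shared E proteins Tcf3, Tcf4 and Tcf12, dimer partners of tissue-specific bHLH factors, were detected in every line, Tcf3 at 11.96, 12.21 and 12.08. Of the HoxB cluster, Hoxb2 to Hoxb9 were all detected in all 3 lines, with Hoxb6 at 13.34, 13.31 and 14.19 and Hoxb5 at 11.68, 11.95 and 13.42. Of 36 HOX genes with a probe, 11 were detected in all 3 lines, and the 3 from outside HoxB were Hoxa3, Hoxa7 and Hoxa9. Notch1, a receptor that opposes neuroendocrine fate, was detected in no line, and Hes1, its target, was highest in line 2 and read 4.62 and 2.72 in lines 1 and 3. Yap1, usually silent in neuroendocrine small cell tumours, was below background in line 1 and read 7.65 and 5.84 in lines 2 and 3.

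Of 580 receptors and surface proteins, 265 (45.7%) were detected in all 3 lines, and 7 were in the brightest 5% of each: Adgrl1, Ptprs, Ptprf, Cd81, Cd24a, Ncam1 and Lrp11. Adgrl1, a latrophilin that couples adhesion to secretion, read 15.92, 15.73 and 16.02. Ptprs and Ptprf, phosphatases that guide axons and organise synapses, read 15.46, 15.12 and 16.16, and 14.50, 14.97 and 14.61. Dner, a neuronal Notch ligand, read 13.63, 12.38 and 12.46, and Unc5a, a netrin receptor, 11.86, 12.85 and 13.07. Of the G protein coupled receptors for small ligands, Hrh3, the histamine receptor of neurons, was bright in all 3 lines at 11.46, 11.44 and 12.06. Gria2, an AMPA glutamate receptor subunit, read 10.75, 10.98 and 12.96. Cd44, a surface protein common on mesenchymal cells, was low at 3.43, 4.51 and 5.04.

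Of 612 secreted products, 265 (43.3%) were detected in all 3 lines, and 3 were in the brightest 5% of each. These were Mif, a cytokine (15.71, 15.98 and 16.35), Chga, and Calca, which encodes calcitonin and its related peptide (14.23, 15.19 and 13.41). Of 84 neuropeptides and peptide hormones, 40 were detected in all 3 lines. Cartpt, a neuropeptide precursor, read 10.31, 10.73 and 8.79, and Grp, the bombesin-like peptide of neuroendocrine lung cells, 8.57, 9.22 and 9.68. Gal, galanin, read 7.90, 7.94 and 8.05, the closest agreement between lines among the peptides named here. Sst, Vip, Tac1 and Npy were below background in all 3. Igfbp5, an IGF binding protein, read 13.87, 13.39 and 12.70, and Ptn, a heparin-binding growth factor, 12.73, 12.23 and 12.99.

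Most of the release machinery was detected in every line, but not at the same level. Of 39 synaptic vesicle genes, 34 were detected in all 3 lines. Cplx2, a complexin that clamps fusion, read 15.38, 15.31 and 13.41, and Rab3a, a vesicle GTPase, 13.71, 12.47 and 14.00. Of the 38 detected in at least 1 line, 10 (26.3%) were called 4-fold higher or lower in some line, against 12.6% of all genes. Lower in line 3 were 5 (3.61% of all genes were), and lower in line 2 were Syn3, Syt4 and Napb (1.55% of all genes were). Stx1a was lower in line 1 and higher in line 2. Slc17a6, a vesicular glutamate transporter, was higher in line 3. Sv2b, a vesicle glycoprotein, read 9.97, 9.84 and 3.82, and Slc18a1, which loads monoamines, 8.94, 8.96 and 4.05. The others lower in line 3 were Syn2, Syt13 and Unc13b. Their close relatives Sv2a, Syn1 and Syt1 did not follow: Sv2a read 7.98, 7.74 and 9.27 and Syn1 11.32, 10.96 and 11.26.

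Across the 12350 genes detected in all 3 lines, lines 1 and 2 were the most alike. Spearman's rank correlation over genes was 0.944 between lines 1 and 2, 0.907 between lines 1 and 3 and 0.914 between lines 2 and 3. Genes within an array are not independent, and lines 1 and 2 also share a slide. A 4-fold difference was seen for 6.31%, 9.60% and 8.83% of these genes. A gene was then called higher in a line if it was detected there and at least 4-fold above both others, with dim values raised to the lowest detected signal of their array. It was called lower by the mirror rule. Of 14674 genes detected in at least 1 line, 323 (2.20%) were higher and 253 (1.72%) lower in line 1, 290 (1.98%) and 228 (1.55%) in line 2, and 456 (3.11%) and 529 (3.61%) in line 3. Any such call was made for 1853 genes (12.6%). The counts follow the rule: with normexp and quantile normalization they were 120 and 76, 102 and 74, and 175 and 224. Against a single other line they were larger: line 1 gave 977 and 834 without line 2 and 621 and 637 without line 3, line 2 956 and 744 without line 1 and 637 and 621 without line 3, and line 3 744 and 956 without line 1 and 834 and 977 without line 2.

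Gene groups differed in their share of calls. Of the transcription factors detected in at least 1 line, 21.3% of 502 were called in some line, of the receptors 117 of 401 (29.2%) and of the secreted products 141 of 436 (32.3%), against 12.6% of all genes. Of the granin list it was 1 of 10 and of the neuroendocrine markers 3 of 20. Matrix genes had 29 of 81, neuropeptides 20 of 60 and the epithelial markers 15 of 15.

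**Figure D3:**
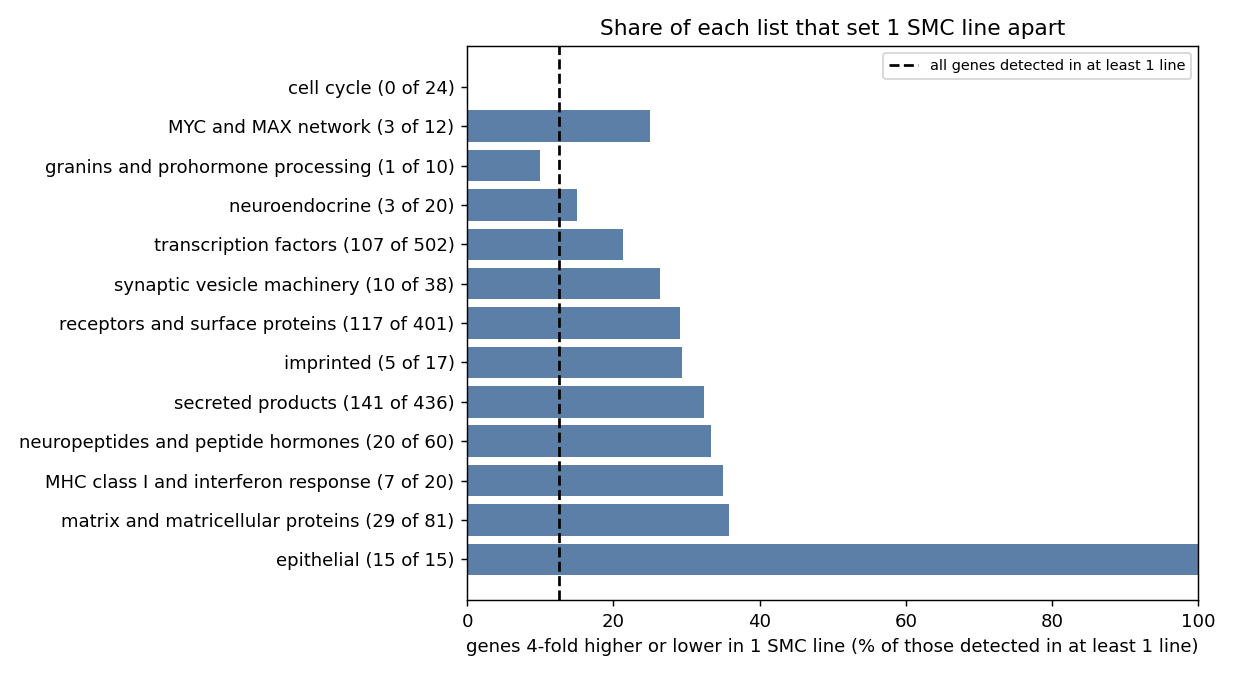
Share of each gene list called 4-fold higher or lower in 1 SMC line (horizontal axis, % of the list's genes detected in at least 1 line; counts in brackets); the dashed line is the 12.6% of all detected genes. The cell cycle list has no call and the epithelial list a call for every gene.

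MYC family genes divided the lines. Mycn read 8.26, 5.94 and 15.62, which put it at rank 161 in line 3 and 164-fold above line 1. Mycl read 15.22, 15.03 and 10.42, 24.3-fold lower in line 3 than in line 2. Myc itself was low throughout at 5.67, 6.22 and 2.57. Their shared partner Max was level at 12.42, 12.39 and 12.54, as was the antagonist Mnt at 13.66, 13.17 and 13.14. Mycl was still detected in line 3, and Mycn in lines 1 and 2. All 12 genes of this network were detected in all 3 lines.

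The neighbours of Mycn were high in the same line. A search for runs of at least 5 neighbouring genes, each at least 2-fold higher or lower in the same line, was chosen after the values had been seen. It found 8 runs, in all 3 lines. Those not described further were H13 to Tpx2, Rtf2 to Rbm38 and Kif12 to Orm2, higher in line 1. Slamf9 to Dusp23, higher in line 2, and Plscr1 to Dipk2a, higher in line 3, were also left at that. The longest run was 10 genes higher in line 3: Gen1, Smc6, Vsnl1, Rad51ap2, Cyria, Mycn, Ddx1, Nbas, Lratd1 and Trib2. Their median excess over the higher of the other lines was 5.86 (log2), with a range of 2.93 to 11.75. Cyria, a regulator of actin branching, read 3.04, 3.11 and 14.86. Ddx1, the RNA helicase next to Mycn, read 12.97, 12.94 and 17.83, and Smc6, a chromosome maintenance protein, 10.71, 11.12 and 16.64. Vsnl1, a neuronal calcium sensor, read 11.78 in line 3 and was below background in both other lines, at least 613-fold lower. Beyond the run, Lpin1 was level at 10.97, 9.54 and 10.43. On the other side lay Msgn1, at 0.78, 1.79 and 3.13, and past it Kcns3, a potassium channel subunit, was again high in line 3 at 6.06, 2.36 and 14.83. Rdh14, next after Kcns3, was level at 10.55, 9.80 and 10.73. In the non-SMC lines 1, 2 and 3, Mycn read 1.14, 7.20 and 8.05 and Ddx1 12.12, 12.37 and 12.59. Cyria read 0.94, 2.43 and 5.76, Kcns3 0.63, 2.76 and 5.75, and Vsnl1 was detected in non-SMC line 3 alone, at 4.82. The partner of line 3 was thus the highest non-SMC line for these 5 genes, each below SMC line 3. The rest of the run was mixed. Smc6 and Lratd1 were also highest in that partner, but Gen1 and Trib2 were highest in non-SMC line 1. Gen1 read 7.12, 6.25 and 6.97 in non-SMC lines 1, 2 and 3. Nbas was near level in non-SMC lines 1 and 3, at 7.82 and 7.88, and Rad51ap2 was detected in no non-SMC line.

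The region of Mycl showed the reverse. Mfsd2a, Mycl, Trit1, Bmp8b and Ppie were a run of 5 neighbours, each lower in line 3, with a median gap of 3.99 (log2) below the lower of the other lines. Trit1, a tRNA modifying enzyme, read 14.77, 14.78 and 10.78, and Ppie, a spliceosomal isomerase, 14.55, 15.70 and 11.07. Bmp8b, a BMP ligand, read 11.49, 14.23 and 7.38. Just beyond lay Hpcal4, at 2.52, 5.29 and 7.36, and Heyl, and then Pabpc4, a poly(A) binding protein, at 16.80, 16.27 and 12.86, and Oxct2a at 9.23, 11.13 and 3.80. On the other side, Ppt1, a lysosomal thioesterase, and Cap1, an actin regulator, were high in line 1 alone, at 15.77, 10.51 and 11.68, and 14.70, 9.29 and 10.10. The edges of the high stretch thus differed between lines 1 and 2. Among the non-SMC partners, Mycl read 6.37, 13.91 and 7.10 in lines 1, 2 and 3, and Trit1 8.60, 13.33 and 8.82, so of the partners, that of line 2 had the high values. Gene copy number was not measured on these arrays.

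**Figure D4:**
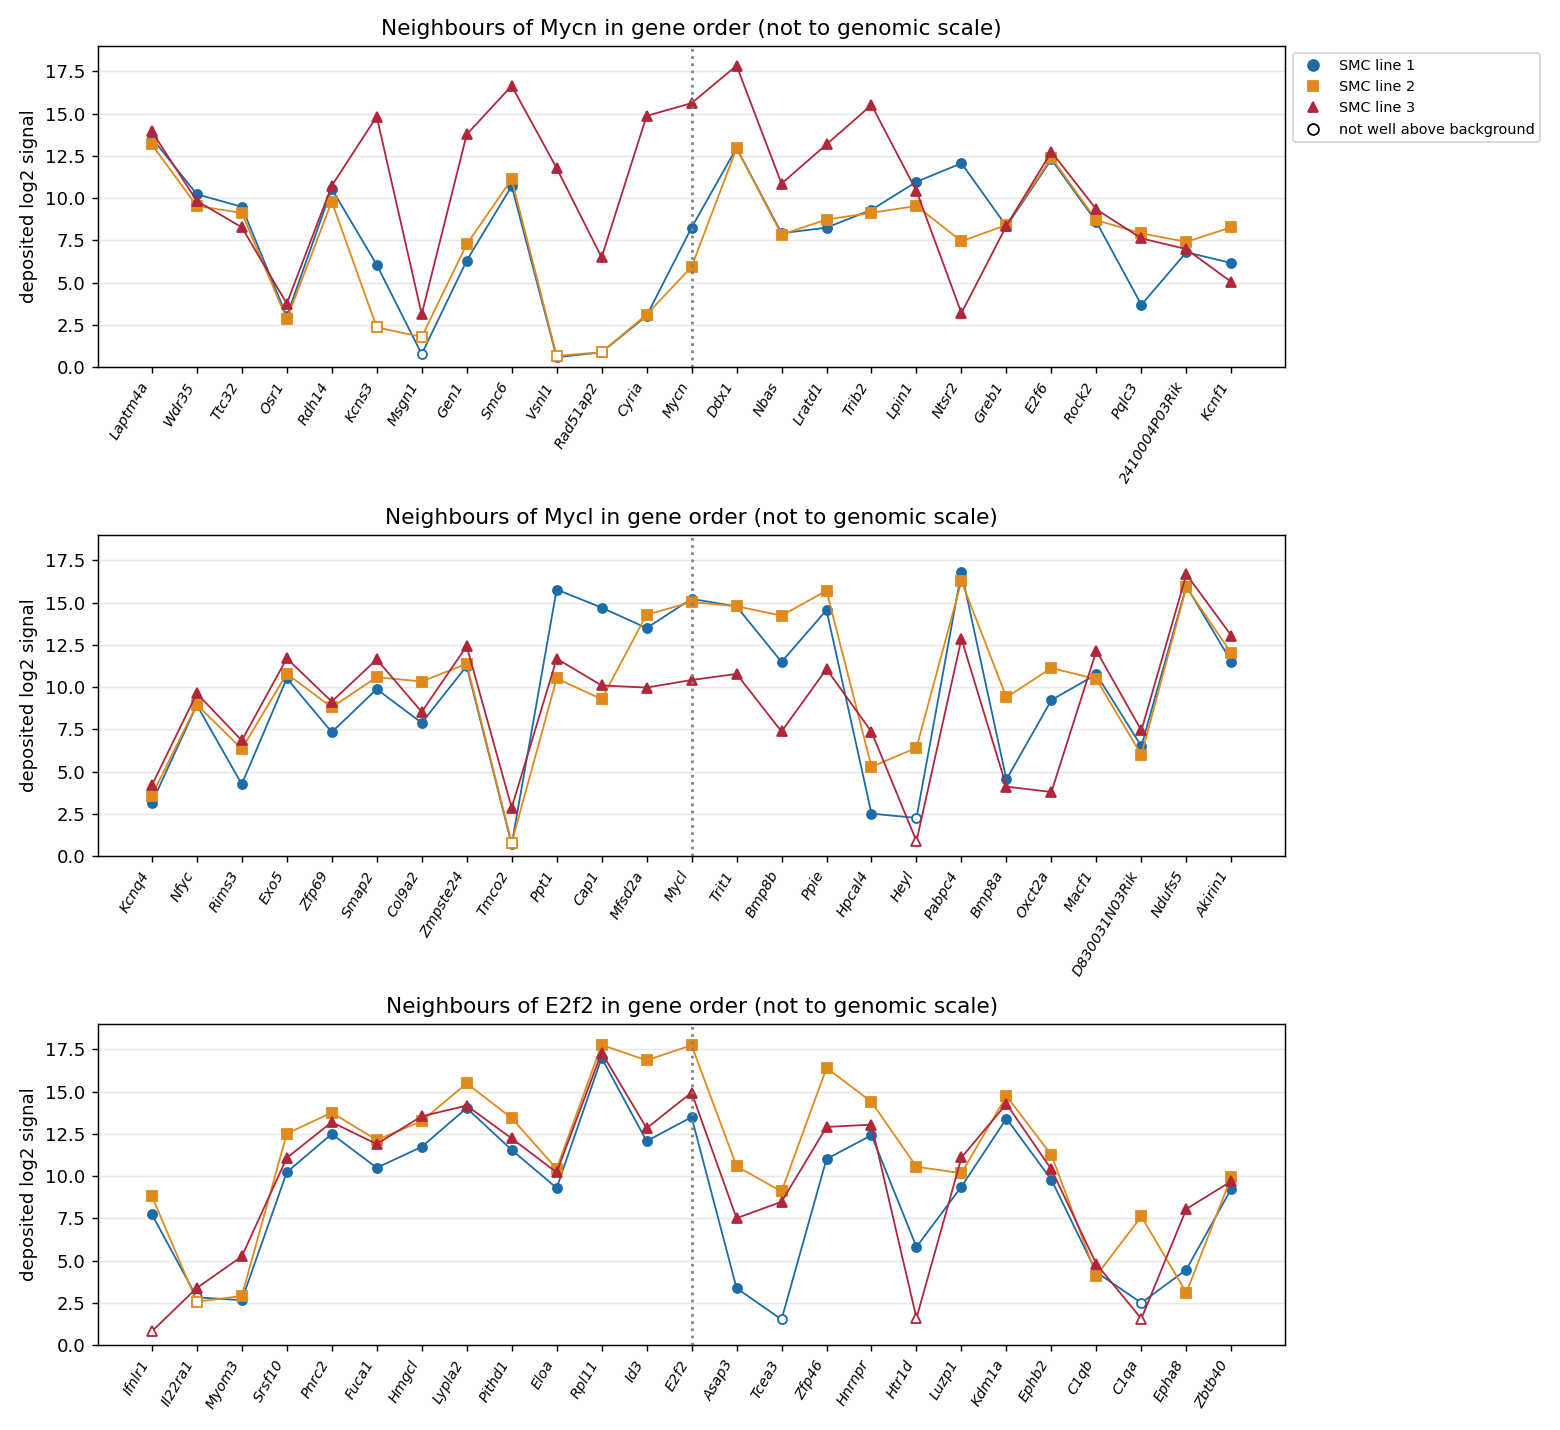
Deposited log2 signal (vertical axis) of 25 genes detected in at least 1 SMC line around Mycn, Mycl and E2f2, in gene order and not to genomic scale; open symbols were not well above background. Line 3 lies above the others from Gen1 to Trib2 and at Kcns3, lines 1 and 2 lie above line 3 from Mfsd2a to Ppie, and line 2 lies above both from Id3 to Hnrnpr.

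A further stretch, also noticed after the values were seen, set line 2 apart. E2f2, a cell cycle transcription factor, ranked 849, 16 and 267 at 13.49, 17.74 and 14.94. Its neighbour Id3, an inhibitor of bHLH factors, read 12.07, 16.84 and 12.83, which is 16.1-fold higher in line 2 than in line 3. Asap3 read 3.38, 10.58 and 7.51 and Zfp46 11.01, 16.40 and 12.91. The non-SMC partner of line 2 was high there as well, with E2f2 at 16.72 and Zfp46 at 15.46. That partner was also the highest non-SMC line for genes elsewhere. In non-SMC lines 1, 2 and 3, Chga read 5.97, 13.74 and 8.81 and Chgb 3.62, 11.26 and 6.74, while Ncam1 was near level at 13.74, 13.71 and 13.11. Medians over 21 neighbouring genes detected in all 3 lines gave a wider view. The window around Fuca1, which reaches E2f2 and Id3, had a median of -1.28 (log2) in line 1 against the mean of the other lines. The window around Prxl2b had a median of 1.26 in line 1. In line 3 the window around Ppt1, which includes Mycl, was at -1.46. With 41 genes in place of 21 it was 0.76, and leaving out line 1 gave 0.34, so its sign depends on the width of the window and on line 1. Of the 9 windows with the largest shifts, taken line by line, 7 lay on chromosome 4, which holds Mycl and E2f2. That chromosome held 6.42% of the placed genes. Its windows around Gnl2 and Stmn1 were higher in line 3, both at 0.99, and its median over all genes was 0.24 in line 3 and -0.20 in line 1. In line 2 the window around Osr1 was at -1.16, and leaving out line 3, whose Mycn run it includes, gave -0.18.

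Epithelial genes were the other feature of line 3. Of 15 epithelial markers, 13 were called lower in line 3, where 3.61% of all genes were. Epcam, an epithelial adhesion molecule, read 12.59, 13.58 and 6.71, 58.6-fold lower in line 3. The keratins of simple epithelium were lower but still detected: Krt8 read 16.09, 16.53 and 9.65, Krt18 15.23, 16.72 and 9.91, and Krt7 16.59, 16.43 and 11.63. Cdh1, E-cadherin, read 7.68 and 8.57 in lines 1 and 2 and was below background in line 3, at least 54.0-fold lower. Esrp1, the epithelial splicing regulator, read 10.10, 10.56 and 2.68, and Dsp, desmoplakin, 12.71, 12.73 and 5.80. Of the factors that sustain epithelium, Grhl2 read 12.35, 11.97 and 6.79 and Ovol1 7.37, 7.30 and 1.32, below background in line 3. The 2 markers that were not called lower in line 3 were Krt19, high in line 1 alone at 10.99, 4.14 and 3.48, and Cldn4, detected in line 2 alone at 5.47. Under normexp and quantile normalization 11 of the 15 were called.

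Zeb1 and Zeb2, repressors of epithelial genes, ran the other way in line 3. Zeb1 read 9.37, 1.99 and 12.61, below background in line 2, and Zeb2 3.61, 2.14 and 7.48. Line 1 held Zeb1 together with high epithelial markers. Of the 18 fibroblast and mesenchymal markers, 9, 8 and 10 were detected in lines 1, 2 and 3, and none was called higher in line 3. In line 3 Vim read 2.59 and Col1a1, a fibrillar collagen, was below background, while Thy1, a surface glycoprotein also of neurons, read 9.26, against 8.73 and 6.78 in lines 1 and 2. Of 81 matrix genes detected in at least 1 line, 12 were higher in line 3, 4 in line 1 and 3 in line 2. Of all genes, 3.11%, 2.20% and 1.98% were. Called lower were 6 matrix genes in line 3, 6 in line 1 and 3 in line 2, against 3.61%, 1.72% and 1.55% of all genes. The secreted products as a whole had 44 of 436 higher in line 3. Ap1m2, which sorts proteins to the basolateral membrane, was among the 6 largest gaps of the genes lower in line 3, at 10.01, 10.82 and 1.22. Others lower in line 3 were Tmem45b at 13.24, 11.89 and 0.74, Tmprss4, a membrane protease, at 11.35, 11.36 and 3.15, and the gut homeobox factor Cdx2 at 11.43, 12.51 and 3.50. Its non-SMC partner kept Epcam at 11.67 and Krt8 at 16.13. Of the 529 genes lower in line 3, 12 were also lower in that partner than in both other non-SMC lines, a rule that 125 of all 14674 genes met there. In the non-SMC partner of line 1, 174 of the 529 were lower by that rule, which 781 of all genes met.

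**Figure D5:**
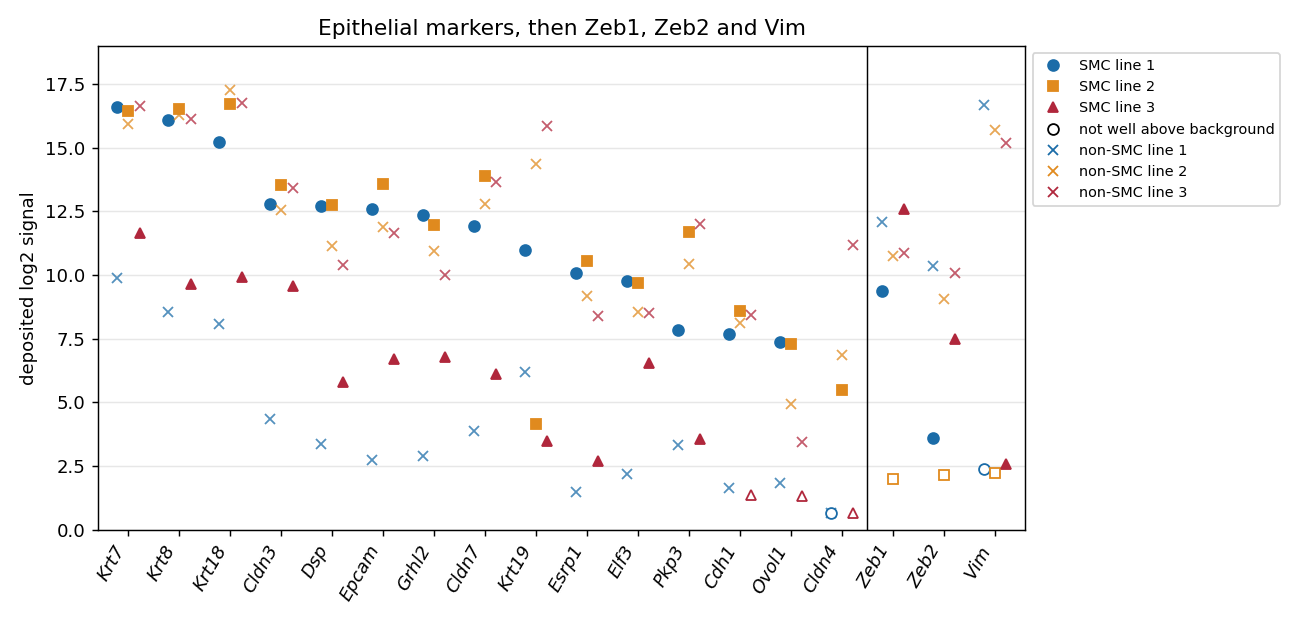
Deposited log2 signal (vertical axis) of 15 epithelial markers and, right of the vertical rule, Zeb1, Zeb2 and Vim; filled and open symbols are the SMC lines (open, not well above background) and crosses the non-SMC lines of the same pair number. Line 3 sits well below lines 1 and 2 for all markers but Krt19 and Cldn4, where another line is low too, and above them for Zeb1 and Zeb2.

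ZEB proteins bind the E-box CAGGTG, read as CACCTG on the other strand. Either was found in 7 of 10 promoters of 9 epithelial markers (250 bases before the start site), in 28.2% of 521 promoters of the genes lower in line 3 and in 17.2% of all 32851 promoters. It was also in 4 of 10 promoters of the granin list. Epcam and Ap1m2 are shown as genes low in line 3 with several matches, the E-boxes in capitals, from RefSeq (GRCm38.p6): Epcam at chr17:87635729-87635978 on the plus strand with 2, and Ap1m2 at chr9:21312334-21312583 on the minus strand with 4.
Epcam: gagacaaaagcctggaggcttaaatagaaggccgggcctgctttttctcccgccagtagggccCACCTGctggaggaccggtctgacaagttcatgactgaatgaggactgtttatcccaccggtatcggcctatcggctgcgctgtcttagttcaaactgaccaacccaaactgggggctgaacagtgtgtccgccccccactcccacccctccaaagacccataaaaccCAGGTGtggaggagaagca
Ap1m2: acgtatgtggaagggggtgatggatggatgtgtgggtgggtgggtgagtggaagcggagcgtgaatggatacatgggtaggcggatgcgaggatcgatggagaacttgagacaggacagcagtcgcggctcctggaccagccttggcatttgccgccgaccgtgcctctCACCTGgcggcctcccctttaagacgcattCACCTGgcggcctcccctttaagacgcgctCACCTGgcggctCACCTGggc
A match describes these letters and no binding was measured.

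Line 3 also had high signals of its own outside the Mycn region. Oas1a, an interferon-induced enzyme with near-identical relatives, read 14.20 against background in lines 1 and 2. Of 20 MHC class I and interferon genes, 5 were higher in line 3 (3.11% of all genes were): Oas1a, Psmb8, Psmb9, Tap1 and Tap2. The last 4 lie together and act in antigen processing, and Psmb8 read 4.85, 6.63 and 9.82. B2m, the light chain of MHC class I, was not among them at 10.47, 10.27 and 8.48, and Isg15 read 5.68, 4.57 and 4.13. Under normexp and quantile normalization 2 of the 20 were higher. Zic1, a neural zinc finger factor, was detected in line 3 alone at 12.12, at least 777-fold above the others. Scrt2, a neuronal repressor, read 4.54, 4.27 and 8.98. Lyz1 and Lyz2, lysozymes of Paneth cells and of macrophages, read 12.65 and 9.17 in line 3, and 2.75 and 0.60 in line 1. Beside them, Ptprc (0.62) and Spi1 (0.77) were below background in line 3 and Tyrobp, a myeloid adaptor, read 3.17. The 14 leukocyte markers, Lyz2 itself among them, had a summed signal of 9.99, 13.41 and 11.31 (log2), with 11 detected in line 3. Coro1a, at 9.87, 13.39 and 10.84, made up most of each sum, so the sums mainly follow that gene. The part of leukocytes in the lysozyme signal was not tested. In the non-SMC partner of line 3, Lyz1 was 11.08, Lyz2 7.89 and Tyrobp 8.75.

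Line 2 carried X-linked germline genes. Rhox2a read 3.37, 13.14 and 1.00, 875-fold above line 1 and below background in line 3, and Xlr4b and Xlr3c read 11.78 and 11.17 in line 2. These families have near-identical members, so which copies were read is uncertain. Gm9, Rhox2a, Rhox3a, Rhox4e and Rhox5 were a run of 5 neighbours higher in line 2. In the partner of line 2, Rhox2a was 11.65 and Xlr4b 10.85, and both were below background in the other non-SMC lines. The run as a whole was not particular to that partner. In non-SMC lines 1, 2 and 3, Rhox4e read 8.33, 9.05 and 7.28 and Rhox5 6.19, 8.32 and 8.52. Of the 290 genes higher in line 2, 74 were also higher in its partner than in both other non-SMC lines, a rule that 713 of the 14674 genes met in that partner. Ptf1a, a bHLH factor of the pancreas and of inhibitory neurons, read 9.27 in line 2 and was below background in both other lines. Tead2, a Hippo pathway factor, read 5.24, 10.54 and 3.94, and Htr1d, a serotonin receptor, 5.81, 10.55 and 1.60. Lower in line 2 were Nfia at 12.68, 4.02 and 10.77, Satb1, a chromatin organiser, at 11.13, 4.08 and 9.75, and Gpr37l1, an orphan receptor, at 12.38, 4.66 and 13.61. Of the 4 nuclear factor I genes, Nfix was also lower in line 2, at 11.61, 7.90 and 10.94, while Nfib and Nfic were not.

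Of the 323 genes higher in line 1, 24 were among the 436 detected secreted products, 23 among 401 receptors and 19 among 502 transcription factors, where 2.20% of all genes were higher in line 1. Angpt2, a ligand that loosens vessels, read 10.67 and was below background in both other lines, at least 285-fold lower. Nts, neurotensin, read 9.11, 1.43 and 3.73, and its receptor Ntsr2 12.06, 7.45 and 3.20. Cxcl14, a chemokine, read 8.24 and was below background elsewhere. Gad1, which makes GABA, read 11.71, 8.78 and 5.54. Prdm16, a zinc finger factor, read 9.38 and was below background in lines 2 and 3, and Isl1 and Nkx2-2, homeobox factors of endocrine and neural cells, read 6.98 and 6.95 in line 1 alone. Smo, the hedgehog transducer, read 11.16, 2.70 and 6.31. Lower in line 1 were the growth regulators Gpc3 at 0.96, 10.50 and 11.73, and Igf2 at 1.85, 13.32 and 9.40, each at least 130-fold below the lower of the others. The chromatin-bound factor Tshz3 read 0.62, 10.27 and 10.79.

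Of the 5 sex-linked genes, Xist, the RNA of the inactive X, read 14.43 and 14.67 in lines 1 and 3, labelled female, and was below background in line 2, labelled male. Eif2s3y and Kdm5d, on the Y chromosome, read 10.11 and 7.04 in line 2 and were below background in the others. Uty read 3.15 in line 2, and Ddx3y, also on the Y chromosome, was below background in all 3 lines. Over 392 X-linked genes detected in all 3 lines, line 1 lay at a median of 0.57 (log2) above the mean of the other lines. On the autosomes that median was between -0.20 and 0.30 in line 1. Lines 2 and 3, labelled male and female, had X medians of -0.28 and -0.23. Line 1 is part of the mean that each of them was set against, so its excess lowers both medians by construction. Rb1 was detected at 9.70, 9.70 and 9.33 and Trp53 at 8.71, 8.74 and 9.02. Where the probes lie relative to the deleted exons was not established here, so these readings check nothing about the deletion.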

How the data were processed

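Total RNA of 6 lines was hybridised to Agilent single-colour arrays. The scanner files hold Cy3 intensity per spot from Feature Extraction 10.7.3.1, per the file headers (10.7 in the submitters' processing notes), with a grid on the build mm9. The authors deposited a table of log2 values of the same probes; no source used here gives the steps. The sorted values of the 6 columns were equal within 0.01 at every position, so they are quantile normalized between arrays, and every column has a median of 5.07. Each column correlated at 0.997 to 0.999 with the log2 processed intensity of its SMC array. These log2 values were analysed in Python 3.11.15 (numpy 2.4.6, pandas 2.3.3, scipy 1.17.1, matplotlib 3.10.9).

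Control spots were left out. Detection was the scanner's well above background call. Probes were named through their accession in RefSeq (GRCm38.p6): 27479 of 41174 had a symbol, and the brightest probe over the SMC arrays stood for a gene. The alternative background correction was limma 3.58.1 in R 4.3.3, normexp with an offset of 50 on the median signal, since a mean signal was not used here. Other alternatives were processed intensity scaled to its 75th percentile, other detection and probe rules, 8-fold, other windows and each line left out.

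The genes named were those with the best mean rank (over all genes, per class and per list), those with the largest gaps per line and a set of fixed names. Other genes, the runs and the neighbourhoods were chosen after their values were seen. The members and lists were chosen with earlier results of these data known. With 1 array per line, the number of arrays limits the precision, and no p-value is given. The scripts were tested on simulated data. One gene of the lists stays in the counts and is not reported here by itself.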

Additional observations from a re-analysis of the deposited data

Results flagged for a closer look

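Probes without a gene symbol were left out of every comparison above, yet many carried signal. Of 13695 such probes, 6000 (43.8%) were well above background on all 3 SMC arrays, against 68.1% of the probes with a symbol. Among them, 213 were in the brightest 5% of all probes in every SMC line.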

How the results depend on the processing

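The number of genes detected in all 3 lines and the rank correlations kept within their limits under every alternative run. The counts of genes 4-fold higher and lower depended on the values and the threshold. With normexp and quantile normalization they were 120 and 76 in line 1, 102 and 74 in line 2, and 175 and 224 in line 3. With an 8-fold threshold they were 159 and 97, 144 and 120, and 209 and 321. Leaving out 1 other line leaves fewer lines to differ from: the counts higher and lower ranged from 621 to 977 and from 637 to 834 in line 1, from 637 to 956 and from 621 to 744 in line 2, and from 744 to 834 and from 956 to 977 in line 3. The brightest 2% of every line held 293 genes and the brightest 10% held 1483, by construction.

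Window medians also moved. In line 1 the window around Fuca1 was -0.96 with normexp, -1.02 over 11 genes, -0.98 over 41 genes, and -1.26 to -0.91 with a line left out. In line 2 the window around Osr1 was -0.93 with normexp, -0.58 over 11 genes, -0.27 over 41 genes, and -1.26 to -0.18 with a line left out. In line 3 the window around Ppt1 reversed to 0.76 over 41 genes and ranged from -0.42 to 0.34 with a line left out; the cause was not tested. Of the gaps of single named genes under the alternatives, 22 stayed within their limits, 53 moved and 0 reversed. No paired analysis was made, because these results describe the SMC lines and come from no test. Values of the non-SMC partners were only set beside them.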
